A study of Mus musculus with 21 samples.

Results

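Foxa3 and Hnf4a peaks were compared in hepatocyte-like (iHep) cells that had been made from mouse fibroblasts with these same proteins. The members are all peaks of the Foxa3 list and of the Hnf4a list of these cells, 12661 and 2506 in number, which together are 15167 of the 53537 peaks in the 13 lists of the series. Each peak was placed in 1 of 3 classes by its position alone. A joint peak overlapped a peak of the other list by at least 1 bp. A near peak had no such overlap, but its centre lay within 2 kb of the centre of a peak of the other list. All remaining peaks were apart.

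The series mapped Foxa1, Foxa2, Foxa3 and Hnf4a by chromatin immunoprecipitation and sequencing (ChIP-seq) in 21 samples, 13 of them with a peak list. All cells began as embryonic fibroblasts of the C57BL/6 strain, taken 13.5 days post coitum and infected with retroviruses. The iHep cells of the Foxa3 line had received Foxa3 and Hnf4a, and so had the cells of the Foxa3 line that were harvested 48 hours after infection. The iHep cells of the Foxa1 line had received Foxa1 and Hnf4a, and those of the Foxa2 line had received Foxa2 and Hnf4a. Both factors were supplied from viruses in every group used here, so no group shows either factor without the other, and no fibroblasts without virus were compared. There is 1 library for each line, stage and antibody, and the sources used here do not say whether the iHep cells were a clone or a mixed culture. The titles of both iHep libraries of the Foxa3 line carry the code R170 and the number 3, those of its 48-hour libraries carry R209, and no source used here explains these codes. The files hold no expression values, so the cell type could not be checked against marker genes.

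Foxa proteins are forkhead transcription factors that can bind DNA wrapped in nucleosomes and are therefore called pioneer factors. Hnf4a is a nuclear receptor that binds DNA as a homodimer. In liver both families act on enhancers and promoters of hepatocyte genes and often occupy the same regulatory elements, which is the background to asking where Foxa3 and Hnf4a were found together in cells converted by the pair.

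In the iHep Foxa3 list 877 of 12661 peaks were joint (6.93%, 95% Wilson interval 6.50% to 7.38%), 1094 were near (8.64%, 8.16% to 9.14%) and 10690 were apart (84.4%, 83.8% to 85.1%). In the much shorter Hnf4a list 945 of 2506 peaks were joint (37.7%, 35.8% to 39.6%), 369 were near (14.7%, 13.4% to 16.2%) and 1192 were apart (47.6%, 45.6% to 49.5%). Thus 52.4% of Hnf4a peaks but 15.6% of Foxa3 peaks were joint or near. With the Foxa3 list reduced by score to the 2506 peaks of the Hnf4a list, 12.7% of Foxa3 and 15.5% of Hnf4a peaks were joint. This step changed the length and the scores of the Foxa3 list together, and their parts were not tested. Every interval covers counting error over peaks only, neighbouring peaks are not independent, and with 1 library per group no spread between replicates and no p-value can be given. The depth of the libraries is unknown.

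The near class was large in the Foxa3 line. There were 39.0 near Hnf4a peaks for every 100 joint ones in the Foxa3 line, against 14.2 where Foxa1 was used and 14.1 where Foxa2 was used. Near Foxa peaks made up 8.64% of the Foxa3 list, against 0.932% of the Foxa1 list and 0.910% of the Foxa2 list. The joint share of the Foxa list itself was of similar size in the lines, at 6.93% for Foxa3, 7.16% for Foxa1 and 4.95% for Foxa2. Each line has its own Foxa antibody and its own libraries, so line, antibody and library cannot be told apart in any comparison between lines. The lists also differed in peak width, with medians of 248 bp for Foxa3, 412 bp for Foxa1 and 461 bp for Foxa2 peaks. For the Hnf4a peaks of these lines the medians were 205 bp, 308.5 bp and 361 bp. The part of peak width in the comparisons between lines was not tested.

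**Figure D1:**
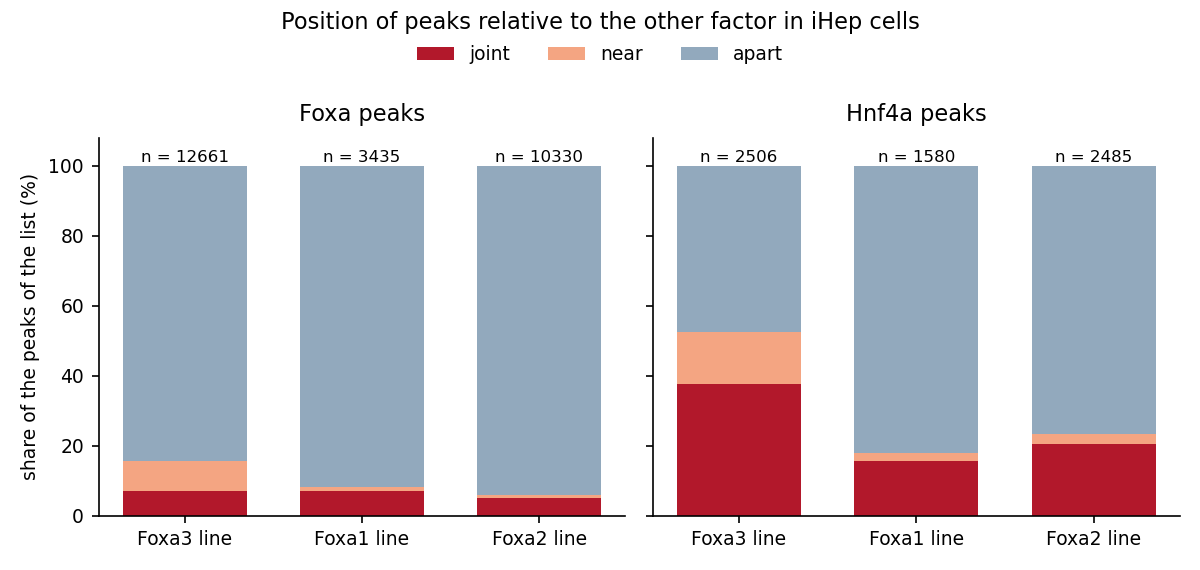
Share of peaks (%, vertical axis) that were joint, near or apart in iHep cells of the Foxa3, Foxa1 and Foxa2 lines, for Foxa peaks (left) and Hnf4a peaks (right), with the number of peaks above each bar. The near segment is 8.64% of Foxa3 peaks and 14.7% of Hnf4a peaks in the Foxa3 line, and under 3% in every list of the other lines.

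Around the limits of the classes, 8 joint pairs overlapped by under 20 bp, the shortest by 1 bp. Among near Hnf4a peaks, 135 lay within 200 bp of the edge of a Foxa3 peak, the closest with a gap of 1 bp. The most distant near Hnf4a peak had its centre 1986 bp from that of a Foxa3 peak, and the closest apart one 2004 bp.

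Joint Foxa3 peaks were wider and scored higher than apart ones, whereas joint Hnf4a peaks scored like apart ones. The score is the authors' own number for each peak, on a scale that the sources used here do not define, and it was compared within a list only. Joint Foxa3 peaks had a median width of 435 bp (quartiles 248 to 825 bp), near ones 254.5 bp (197 to 384 bp) and apart ones 240 bp (190 to 369 bp). Their median scores were 18.6 for joint (12.4 to 27.8), 13.1 for near (9.58 to 18.6) and 14.6 for apart peaks (10.6 to 20.7). The medians of joint and apart Foxa3 peaks differed by 195 bp in width and 4.02 in score, and with joint meaning centres within 200 bp they differed by 105 bp and 2.34. Near Foxa3 peaks resembled apart ones in width and lay slightly below them in score. Hnf4a peaks had a median score of 10.2 when joint (8.43 to 12.5), 9.78 when near (8.32 to 12.05) and 10.2 when apart (8.39 to 12.6). Their median widths were 217 bp, 195 bp and 201 bp in the same order.

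Width separated the Foxa3 classes more than score did, as seen when each list was divided by score or by width into 4 bands of 25% of its peaks. Of the narrowest 25% of Foxa3 peaks 3.33% were joint (2.76% to 4.005%), and of the widest 25% the share was 15.1% (13.9% to 16.4%). By score the joint share was 4.21% (3.56% to 4.96%) in the lowest band and 11.7% (10.7% to 12.9%) in the highest. Of the 461 Foxa3 peaks over 1000 bp wide, 171 were joint (37.1%, 32.8% to 41.6%), against 127 of the 3832 peaks of up to 200 bp (3.31%, 2.79% to 3.93%). A wider peak covers more sequence and so meets another list more easily, and width and score moved together over the 12661 Foxa3 peaks (Spearman's rho 0.41, both taken from the same library). Within the narrowest 25% the joint share did not climb with score, at 3.46% in the lowest and 2.63% in the highest score band. Within the widest 25% it did, at 8.16% (5.50% to 11.9%) in the lowest and 17.9% (16.1% to 19.8%) in the highest score band. Among narrow peaks the median scores of the classes were close, at 11.8 for joint and 12.1 for apart peaks in the narrowest 25%, and in the widest 25% they were 24.4 and 21.1. The widest 25% spans 388 to 10265 bp, so its peaks still differed in width. The part of width in the differences within this band was not tested.

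The Hnf4a list showed a higher joint share in its widest band but no trend with score. The joint share of Hnf4a peaks was 35.9% (32.3% to 39.7%) in the lowest score band and 38.0% (34.3% to 41.9%) in the highest. By width it was 32.2% (28.7% to 35.9%) in the narrowest band and 50.2% (46.2% to 54.1%) in the widest, peaks of 279 bp and over, with 35.4% and 33.3% between them. Whether an Hnf4a peak lay at Foxa3 thus showed no trend with its score.

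**Figure D2:**
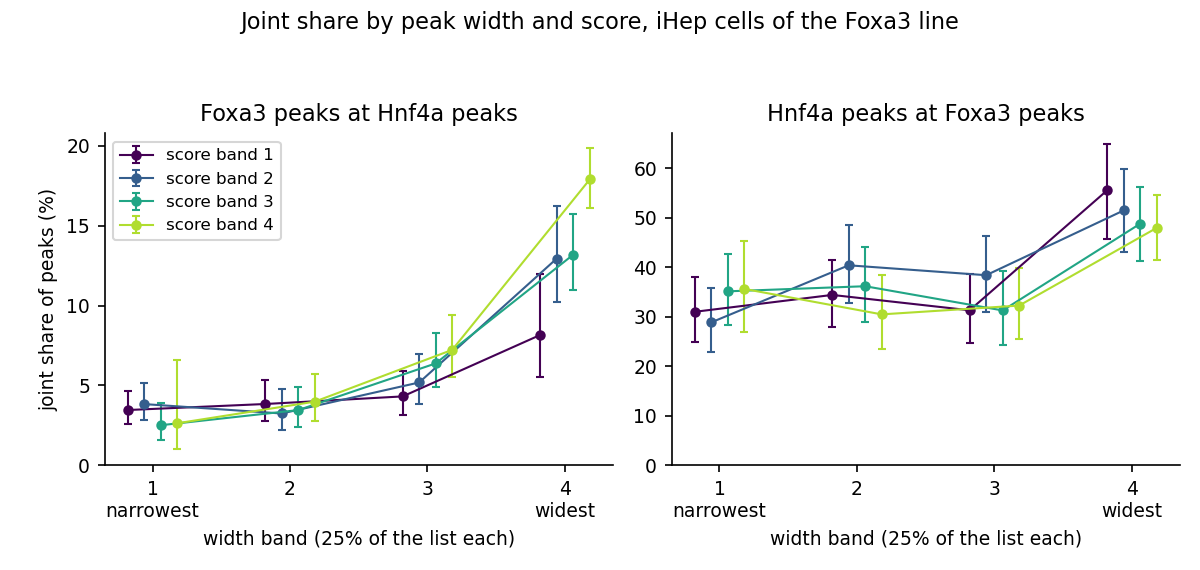
Joint share (%, vertical axis) of Foxa3 peaks (left) and Hnf4a peaks (right) of iHep cells of the Foxa3 line in the 4 width bands of the list (horizontal axis, narrowest to widest), with a line for each score band and 95% Wilson intervals as bars. The joint share of the widest Foxa3 peaks lies between 8.16% and 17.9% and climbs with score, while that of the narrowest lies between 2.51% and 3.83%.

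The 877 joint Foxa3 peaks and 945 joint Hnf4a peaks formed 981 overlapping pairs. Overlap itself caps the distance between the centres of a pair, so the distances below follow in part from the class. The distance between the centres of a pair had a median of 123 bp (quartiles 41.5 to 262 bp) and reached 2705.5 bp. The centres lay within 50 bp of each other in 28.4% of pairs, within 100 bp in 44.8%, within 200 bp in 65.4% and within 500 bp in 89.8%. In 543 pairs (55.4%) the Hnf4a peak lay wholly inside the Foxa3 peak, in 60 (6.12%) the Foxa3 peak lay inside the Hnf4a peak, and the Foxa3 peak was the wider one in 784 (79.9%). An Hnf4a peak wholly inside a Foxa3 peak was the common form where the Foxa3 peak was over 500 bp wide, at 78.8% of 482 pairs. Where it was up to 500 bp wide, this held for 32.7% of 499 pairs. The scores of the pair were almost unrelated across the 981 pairs (Spearman's rho 0.045), and so were the widths (0.066).

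The offset grew with the width of the Foxa3 peak. In the 499 pairs with a Foxa3 peak of up to 500 bp the median offset was 55.5 bp, and in the 482 pairs with a wider one it was 239.75 bp. Pairs with a Foxa peak of up to 500 bp had a median offset of 76 bp with Foxa1 and of 60.5 bp with Foxa2. The Foxa peaks of these pairs had median widths of 269 bp in the Foxa3 line, 395.5 bp in the Foxa1 line and 416 bp in the Foxa2 line. Overlap limits the offset by width, so these offsets do not compare the lines at like width. Divided by the distance from centre to edge of the Foxa peak, the median offset was 0.401, 0.387 and 0.289 in the same order. For pairs with a Foxa peak over 500 bp it was 0.506, 0.296 and 0.238. Over all widths the centres lay within 200 bp in 65.4% of pairs of the Foxa3 line, 87.9% of the 247 pairs of the Foxa1 line and 91.0% of the 511 pairs of the Foxa2 line.

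Most joint sites paired 1 peak of each factor, but some wide Foxa3 peaks held several Hnf4a peaks. Of the joint Foxa3 peaks 800 had 1 Hnf4a partner, 58 had 2, 14 had 3, 2 had 4 and 3 had 5. The 77 Foxa3 peaks with 2 or more partners had a median width of 1352 bp and a median score of 31.6, against 387.5 bp and 17.9 for those with 1 partner. Of the joint Hnf4a peaks 910 had 1 Foxa3 partner, 34 had 2 and 1 had 3. The widest Foxa3 peak of all, chr19:5793849-5804113 at 10265 bp with a score of 89.0, held only 1 Hnf4a peak.

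Beyond direct overlap, Hnf4a peaks stayed frequent for several kilobases around Foxa3 peaks. Counted by the distance between centres, there were 96.8 pairs per 1000 Foxa3 peaks within 0.5 kb, 55.5 in the next 0.5 kb, 38.6 at 1 to 1.5 kb, 25.1 at 1.5 to 2 kb and 6.71 at 9.5 to 10 kb. In the Foxa1 line there were 74.8 pairs per 1000 Foxa1 peaks within 0.5 kb and 3.78 at 0.5 to 1 kb. In the Foxa2 line there were 49.8 pairs per 1000 Foxa2 peaks within 0.5 kb and 3.10 at 0.5 to 1 kb. The decline with distance was thus gradual in the Foxa3 line and abrupt in the other lines. Both lists of the Foxa3 line also held many peaks in runs, described below, and a run multiplies the pairs around it, so the part of runs in this profile was not tested. The same holds for the different peak widths of the lists.

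**Figure D3:**
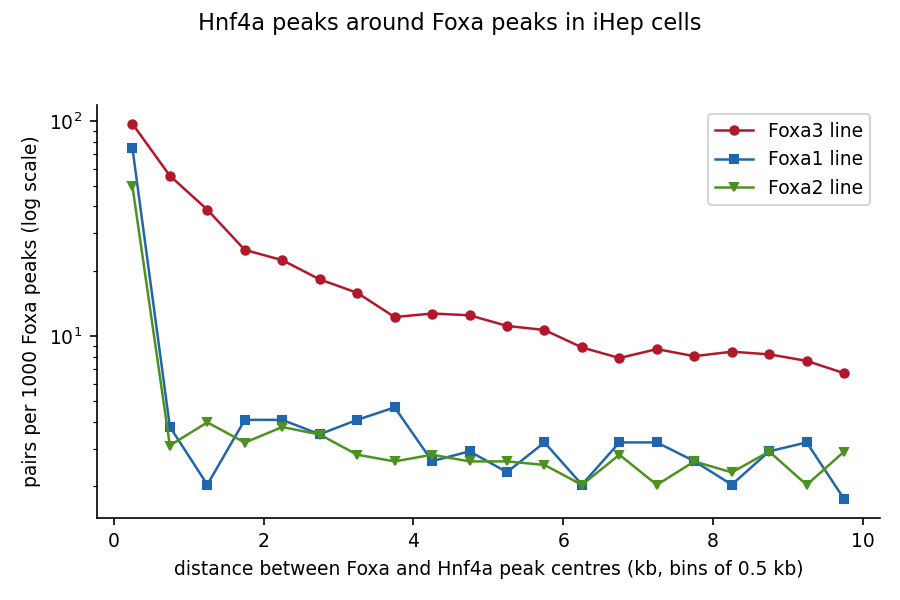
Pairs of a Foxa peak and an Hnf4a peak per 1000 Foxa peaks (vertical axis, log scale) against the distance between their centres (kb, in bins of 0.5 kb) in iHep cells of the Foxa3, Foxa1 and Foxa2 lines. The Foxa3 line declines gradually, with 55.5 pairs in the bin after the first, where the Foxa1 line has 3.78 and the Foxa2 line 3.10.

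A run was defined as 2 or more peaks of 1 list with gaps of at most 2 kb. In all, 66.1% of iHep Foxa3 peaks and 40.4% of iHep Hnf4a peaks of the line lay in runs, against 3.44% of Foxa1 and 8.68% of Foxa2 peaks of the other lines. The narrowest peak was 166 bp in the Foxa3 list, 311 bp in the Foxa1 list and 325 bp in the Foxa2 list. The part of such differences in peak width was not tested. Of the joint Foxa3 peaks 75.5% lay in runs (72.5% to 78.2%), of the near ones 87.8% (85.7% to 89.6%) and of the apart ones 63.1% (62.2% to 64.0%). The value of the near class follows in part from its definition, since an Hnf4a peak that is joint with 1 Foxa3 peak of a run can make the neighbours of that peak near. Joint peaks were more often found in long runs than apart ones: 20.8% of joint (18.2% to 23.6%), 26.7% of near and 9.93% of apart Foxa3 peaks (9.37% to 10.5%) lay in runs of 5 or more. In runs of 10 or more lay 49 joint Foxa3 peaks (5.59%) and 223 apart ones (2.09%).

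Seen by run length, the joint share of Foxa3 peaks was 5.005% for peaks standing alone (4.39% to 5.70%), 6.27% in runs of 2, 8.05% in runs of 3 or 4, 10.9% in runs of 5 to 9 (9.29% to 12.8%) and 15.5% in runs of 10 or more (11.9% to 19.8%). The last value rests in part on 1 locus on chromosome 6, described below: without it 26 of 284 Foxa3 peaks in runs of 10 or more were joint (9.15%, 6.32% to 13.1%), so the climb then ended at runs of 5 to 9. Peaks in longer runs were also wider, with medians of 228 bp for single peaks and 328 bp in runs of 10 or more, and had lower scores, with medians of 15.9 and 11.5. Within the narrowest 25% of Foxa3 peaks the joint share was 3.39% in runs and 3.24% for single peaks. Within the widest 25% it was 17.0% in runs (15.5% to 18.6%) and 10.1% for single peaks (8.26% to 12.3%). The higher joint share in runs was therefore seen in wide peaks and not in the narrowest ones. The widest 25% spans 388 to 10265 bp, and the part of width within it was not tested.

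Hnf4a peaks in runs of 5 or more were joint more often than single ones, at 99 of 143 (69.2%, 61.2% to 76.2%), and at 75 of 118 (63.6%) without the chromosome 6 locus. The joint share of Hnf4a peaks was 36.2% for single peaks, 32.0% in runs of 2, 41.2% in runs of 3 or 4, 62.5% in runs of 5 to 9 (53.3% to 70.9%) and 29 of 31 in the 2 runs of 10 or more (93.5%), of which 18 peaks form 1 run at that locus. No apart Hnf4a peak lay in a run of 10 or more (0 of 1192, which allows a share of up to 0.252%), and 15 lay in runs of 5 or more (1.26%), against 99 joint ones (10.5%). That limit and the intervals count peaks, but there were only 2 runs of 10 or more and 19 of 5 to 9. Peaks of a run are not independent, so they are too narrow.

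**Figure D4:**
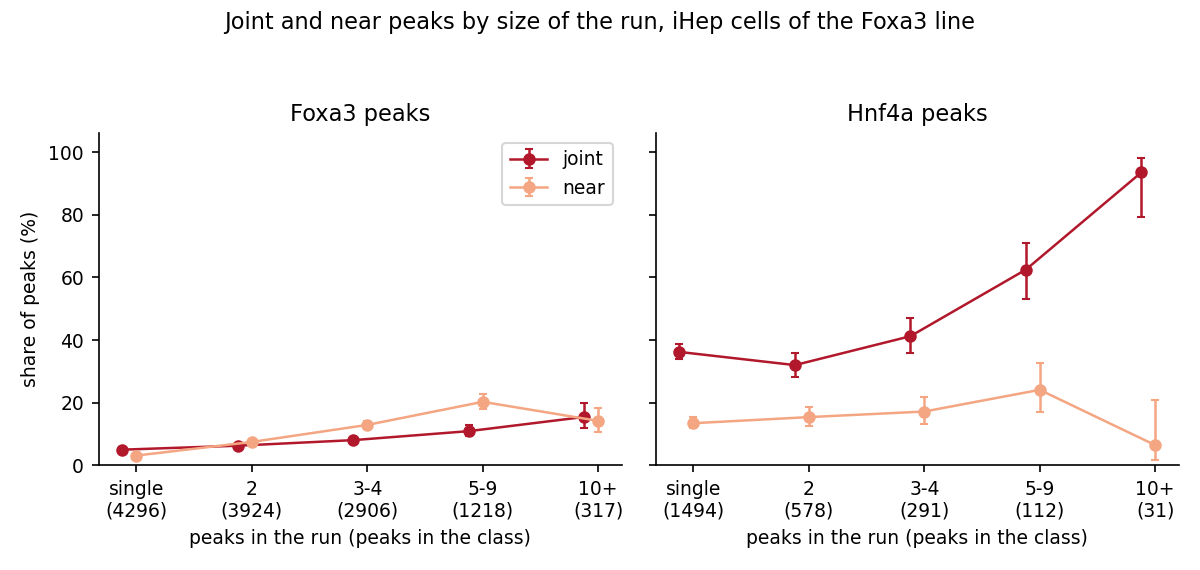
Share (%, vertical axis) of Foxa3 peaks (left) and Hnf4a peaks (right) of iHep cells of the Foxa3 line that were joint or near, by the number of peaks in the run that holds them (horizontal axis, number of peaks in brackets), with 95% Wilson intervals. In runs of 10 or more the joint share is 15.5% for Foxa3 and 93.5% for Hnf4a, and without 1 locus on chromosome 6 it is 9.15% for Foxa3, below the 10.9% in runs of 5 to 9.

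The long runs differed in how much Hnf4a they held. The longest run of Foxa3 peaks, 42 peaks at chr19:5812430-5850576 over 38.1 kb, had 1 joint peak, and 24 of its peaks were already Foxa3 peaks at 48 hours. A run of 22 Foxa3 peaks at chr4:11082215-11103162 and another of 18 at chr17:35826496-35842316 had 0 joint peaks. In each of them 1 peak was a Foxa3 peak at 48 hours. By contrast, 11 of 18 Foxa3 peaks at chr6:52193492-52210124 and 12 of 15 at chr6:52172259-52190469 were joint. These neighbouring runs lie within 37.9 kb, chr6:52172259-52210124, where 23 of 33 Foxa3 peaks (69.7%) and 27 of 28 Hnf4a peaks (96.4%) were joint. In the runs there 4 of the 33 Foxa3 peaks were Foxa3 peaks at 48 hours, against 43.8% of all iHep Foxa3 peaks. Early Foxa3 was thus rare both in these runs with many joint peaks and in those with 0.

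That locus also holds the longest run of Hnf4a peaks, 18 peaks at chr6:52173617-52190454, of which 17 were joint. Further runs of Hnf4a peaks at Foxa3 were 13 peaks with 12 joint at chr5:143573858-143584800, and 8 peaks, all of them joint, at chr11:120094603-120099556. A run of 7 Hnf4a peaks at chr15:102790753-102796363 had 1 joint and 4 near peaks. Without the chromosome 6 locus the share of joint Foxa3 peaks in runs of 10 or more was 3.04%, against 5.59% with it, and it was 0% when each list was limited to its higher-scoring 50%. The joint share was 6.76% over all Foxa3 peaks and 37.0% over all Hnf4a peaks when the locus was left out.

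By chromosome, the joint share of Foxa3 peaks was highest on chromosome 6, at 85 of 704 peaks (12.1%, 9.87% to 14.7%), and 9.24% there without the locus. It was lowest on chromosome X, at 2 of 183 peaks (1.09%, 0.300% to 3.90%), and lay between 5.20% and 8.06% on all others.

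The history of the joint sites was read from the 48-hour lists of the same line. Foxa3 was already called at a similar share of joint and apart sites, and Hnf4a at few of either. Of all iHep Foxa3 peaks 43.8% overlapped a 48-hour Foxa3 peak, and this held for 438 of 877 joint (49.9%, 46.6% to 53.2%), 396 of 1094 near (36.2%, 33.4% to 39.1%) and 4714 of 10690 apart peaks (44.1%, 43.2% to 45.0%). The difference of 5.85 percentage points between joint and apart peaks was not seen within score bands (-1.76 points) or within width bands (-3.41 points). Both values average the bands, weighted by their numbers of joint peaks. They have no interval, so a lower share at joint peaks is not shown by them. The highest score band ran the other way, as the shares below show. The difference was -3.30 points (-6.51 to 0.218) when joint and lying at a 48-hour peak both meant centres within 200 bp. With peaks within 500 bp merged it was 14.2 points (10.5 to 17.8). The share with early Foxa3 was thus not higher, on this weighted average, at joint than at apart sites of the same score or width bands. It climbed with score in every class. Among joint Foxa3 peaks 11.2% of the lowest score band (6.90% to 17.6%) and 77.1% of the highest (72.5% to 81.1%) were Foxa3 peaks at 48 hours, against 21.3% (19.8% to 22.9%) and 71.6% (69.8% to 73.3%) among apart ones. In the bands between them the shares were 29.1% and 43.5% among joint peaks, against 35.2% and 49.4% among apart ones. Only in the lowest score band did the intervals of joint and apart peaks not overlap. By width this held in band 3 alone, at 34.6% of joint (28.1% to 41.9%) and 44.9% of apart peaks (43.1% to 46.8%).

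Hnf4a was already called at 48 hours at very few of these sites. Of all iHep Hnf4a peaks 1.48% overlapped a 48-hour Hnf4a peak, with 14 of 945 joint (1.48%, 0.885% to 2.47%), 1 of 369 near (0.271%) and 22 of 1192 apart peaks (1.85%, 1.22% to 2.78%). Joint and apart Hnf4a peaks did not stand apart in this, as their intervals overlap. The 48-hour Hnf4a list held 370 peaks, and 119 of them lay in 3 dense blocks of neighbouring peaks, within which 0 were at a joint site and 0 iHep Foxa3 peaks were called. Of the 251 outside the blocks, 37 lay at an iHep Hnf4a peak and 19 of these at a joint one. The depth of the 48-hour Hnf4a library is unknown, so sites without Hnf4a and sites bound but not called cannot be told apart.

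Of all iHep Foxa3 peaks 0.111% lay at a 48-hour Hnf4a peak, 12 of them joint (1.37%), 0 near and 2 apart. Of all iHep Hnf4a peaks 18.2% lay at a 48-hour Foxa3 peak, with 417 of 945 joint (44.1%, 41.0% to 47.3%), 22 of 369 near (5.96%) and 18 of 1192 apart ones (1.51%, 0.957% to 2.37%). This last contrast is largely set by the classes, because a joint peak lies at Foxa3 by definition and many Foxa3 peaks were shared between the stages. The difference between joint and apart Hnf4a peaks was 42.6 points. It was 23.5 points when joint and lying at a 48-hour Foxa3 peak both meant centres within 200 bp. The parts of these changes were not tested.

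Overlapping joint peaks merged into 841 joint regions, of which 740 held 1 peak of each factor, 67 held 1 Foxa3 and several Hnf4a peaks, 26 several Foxa3 peaks and 1 Hnf4a peak, and 8 several of both. At 48 hours 432 of these regions held Foxa3 alone (51.4%, 48.0% to 54.7%), 395 held neither factor (47.0%, 43.6% to 50.3%), 9 held Hnf4a alone (1.07%) and 5 held both (0.595%). The 48-hour lists themselves held 5690 Foxa3 and 370 Hnf4a peaks, and over whole iHep lists 43.8% of Foxa3 peaks lay at early Foxa3 and 1.48% of Hnf4a peaks at early Hnf4a. The regions with early Foxa3 alone had a median iHep Foxa3 score of 25.6 and a width of 620.5 bp, against 14.0 and 344 bp for those with neither. Their Hnf4a scores were alike, with medians of 10.5 and 10.1. The 9 regions with early Hnf4a alone had a median iHep Hnf4a score of 22.7.

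Read forward, the 5690 Foxa3 peaks of 48 hours had several outcomes. In iHep cells 447 of them lay at a joint Foxa3 peak (7.86%, 7.18% to 8.58%), 191 at a near one (3.36%), 3585 at an apart one (63.0%) and 1467 at none (25.8%, 24.7% to 26.9%). Their median 48-hour scores were 17.4, 16.0, 15.7 and 11.9 in the same order. Their median 48-hour widths were 657 bp, 522 bp, 564 bp and 455 bp, and the part of width in the shares below was not tested. The share that became joint was 5.56% (4.49% to 6.86%) in the lowest 48-hour score band and 12.02% (10.4% to 13.8%) in the highest. The apart share climbed as well, with 51.0% in the lowest band and 72.3% in the highest, and the share at no iHep Foxa3 peak was 41.5% in the lowest and 11.5% in the highest. Among the 48-hour peaks that were also iHep Foxa3 peaks, the joint share was 9.50% (7.70% to 11.7%), 9.39%, 9.11% and 13.6% (11.8% to 15.6%) from the lowest band to the highest. Of the 1467 that were no longer Foxa3 peaks, 19 lay at an iHep Hnf4a peak (1.30%, 0.831% to 2.01%).

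**Figure D5:**
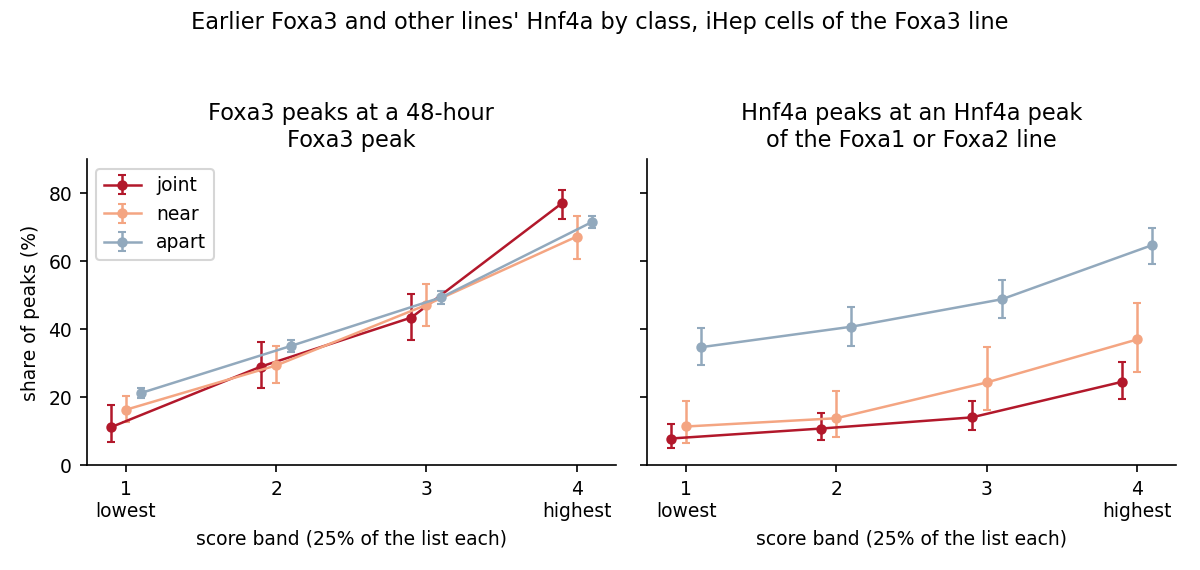
Share of peaks (%, vertical axis) by class and score band of the list (horizontal axis) in iHep cells of the Foxa3 line, with 95% Wilson intervals, for Foxa3 peaks that overlap a 48-hour Foxa3 peak (left) and for Hnf4a peaks that overlap an iHep Hnf4a peak of the Foxa1 or Foxa2 line (right). On the left all classes climb with score, with 11.2% of joint and 21.3% of apart peaks in the lowest band and 77.1% and 71.6% in the highest. On the right the joint peaks lie below the apart ones in every band, at 24.6% and 64.8% in the highest.

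Most Hnf4a peaks at Foxa3 were absent from the Hnf4a lists of the other iHep lines. Of all iHep Hnf4a peaks of the Foxa3 line 31.0% overlapped an iHep Hnf4a peak of the Foxa1 or Foxa2 line. This held for 136 of 945 joint peaks (14.4%, 12.3% to 16.8%), 76 of 369 near ones (20.6%, 16.8% to 25.02%) and 566 of 1192 apart ones (47.5%, 44.7% to 50.3%). The order was the same in each score band, with 7.89% of joint, 11.4% of near and 34.8% of apart peaks in the lowest and 24.6%, 37.0% and 64.8% in the highest. It was also the same in runs, at 17.8% of joint, 29.8% of near and 53.4% of apart peaks, and among single peaks, at 11.8%, 12.9% and 44.0%. The intervals of joint and near peaks overlap in every score band and among single peaks. Only the higher share of apart peaks is therefore shown there.

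Joint Hnf4a peaks were also seldom at the Foxa peaks of the other lines. Of the 2506 iHep Hnf4a peaks 4.75% lay at an iHep Foxa1 peak, with 1.16% of joint (0.651% to 2.07%) and 8.14% of apart ones (6.72% to 9.83%). At an iHep Foxa2 peak lay 9.90% of all, with 2.65% of joint (1.80% to 3.88%) and 15.9% of apart ones (14.0% to 18.1%). The Foxa3 peaks themselves ran the other way: 1.94% of joint and 0.355% of apart Foxa3 peaks lay at an iHep Foxa1 peak, and 5.02% of joint and 1.67% of apart ones at an iHep Foxa2 peak. Joint Foxa3 peaks were wider, as given above, and the part of width in this was not tested.

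In the other lines the same measure did not fall at joint sites. The share of Hnf4a peaks that were also Hnf4a peaks of either other iHep line was 14.4% for joint and 47.5% for apart peaks in the Foxa3 line, a difference of -33.1 points. In the Foxa1 line it was 70.0% for joint and 67.6% for apart peaks (2.40 points), and in the Foxa2 line 57.5% and 43.4% (14.2 points). The difference in the Foxa3 line was -18.2 points when joint and lying at another line's Hnf4a peak both meant centres within 200 bp. Of the joint Hnf4a peaks of the Foxa1 line 86.6% also lay at an iHep Foxa2 peak, against 11.1% of its apart ones, and the part of such sharing between Foxa1 and Foxa2 in the difference between lines was not tested. Among the 841 joint regions 130 held an Hnf4a peak of another line and 43 a Foxa1 or Foxa2 peak. Early Foxa3 was as frequent in those 130 (65 regions, 50%, 41.5% to 58.5%) as in the other 711 (372 regions, 52.3%, 48.6% to 56.0%).

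The strongest joint regions were picked by the sum of the ranks of their Foxa3 and Hnf4a scores. The best was chr6:85087366-85087755, with a Foxa3 score of 51.3 at rank 100 and an Hnf4a score of 33.4 at rank 6, centres 19 bp apart. It was a peak in both 48-hour lists and held an Hnf4a peak of another line. Next came chr15:80085660-80089313, where a Foxa3 peak of 3654 bp with a score of 81.4 held 2 Hnf4a peaks, the better with a score of 17.4. At chr2:103637379-103638020 the scores were 49.5 for Foxa3 and 23.7 for Hnf4a, at chr11:75275139-75276518 they were 66.4 and 17.7, and at chr11:106648929-106649861 they were 94.4 and 15.6. These 4 regions were Foxa3 peaks without Hnf4a at 48 hours. The Foxa3 peak of the last ranked 2 in its list, and its Hnf4a peak ranked 231.

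The most peaks in a joint region were 6, found at 4 regions. In chr5:143579369-143584035, chr6:86473728-86477789 and chr7:80699039-80703351 a single Foxa3 peak of over 4 kb held 5 Hnf4a peaks each, and all 3 were Foxa3 peaks at 48 hours. The remaining one, chr6:52180483-52184612 in the joint-rich locus, held 2 Foxa3 and 4 Hnf4a peaks and was in neither 48-hour list.

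The 5 joint regions with peaks in both 48-hour lists had high iHep Hnf4a ranks. Beside chr6:85087366-85087755 they were chr10:7382818-7383748, chr13:37917686-37919083, chr7:134919883-134921543 and chr7:26022557-26023457, with iHep Hnf4a ranks of 6, 196, 93, 96 and 3 among 2506 peaks. Their iHep Foxa3 peaks ranked 100, 1661, 2914, 4358 and 4979 among 12661, so each stood nearer the top of the Hnf4a list than of the Foxa3 list. At chr7:26022557-26023457 the Hnf4a peak, at 854 bp, was wider than the Foxa3 peak, the reverse of the usual order.

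The highest score of each list belonged to an apart peak. The top apart Foxa3 peak, chr11:115884470-115885880, scored 96.1, and the top near one, chr12:55839620-55840048, scored 63.6. The top apart Hnf4a peak, chr4:141115501-141116691, scored 38.3 and was an Hnf4a peak in both other lines, as was the top near one, chr8:13200676-13201254, at 31.5. The top joint Hnf4a peak, at chr7:26022604-26023457 with 36.1, was an Hnf4a peak in neither.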

How the data were processed

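ChIP-seq peak lists were used as the authors deposited them, each with the position and the score of every peak. The score is the authors' number, on a scale that no source used here states. The submitters' processing notes name the build mm9 and the tools bedtools 2.16.2, MACS2 2.1.0 and BWA 0.6.2, with no role for any of them. Whether an input was used to call peaks is not given there, and the inputs were not analysed here. Titles gave the line, stage and antibody of each sample, with 1 library per group, so no test was made. The files hold no read counts, so depth is unknown.

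Positions are mm9, with the first base counted as 1. Peaks were classed by overlap of at least 1 bp and by centres within 2 kb, and a run joined peaks of a list with gaps of at most 2 kb. Shares carry 95% Wilson intervals. A share of 0 is given with the limit that 3 counts allow. Bands of 25% split a list by score or width. Joint regions merge overlapping Foxa3 and Hnf4a peaks. Dense blocks are chains of at least 5 peaks found in every 48-hour Hnf4a list, with 10 kb on each side. The overlap and run code was tested on simulated data.

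Regions were named by rule: the 5 joint regions with the best summed rank, those with the most peaks, those in both 48-hour lists, the top peak of each class and the longest runs. The further runs and the joint-rich locus were chosen after their values were seen. The classes, lists and measures were chosen with earlier results of these data known. No gene, motif or sequence was assigned, since the annotation at hand is not on mm9. Alternatives were another overlap rule, another near window or run gap, shorter lists, merged peaks, and lists without chromosome X, the blocks or the locus. Values were computed in Python 3.11.15 with networkx 3.6.1, SciPy 1.17.1, pandas 2.3.3, NumPy 2.4.6 and matplotlib 3.10.9.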

Additional observations from a re-analysis of the deposited data

Results flagged for a closer look

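The Foxa3 line stood apart from both other lines in 2 contrasts between joint and apart peaks. Among its Hnf4a peaks, those at Foxa3 were less often Hnf4a peaks of either other iHep line than those apart, by -33.1 percentage points, against 2.40 points in the Foxa1 line and 14.2 points in the Foxa2 line. Among its Foxa3 peaks, joint ones lay in runs more often than apart ones, by 12.4 points, against -0.512 points in the Foxa1 line and -0.254 points in the Foxa2 line. The intervals of joint and apart peaks overlap in the Foxa1 line for the first contrast and in both other lines for runs, which hold 3.44% of Foxa1 and 8.68% of Foxa2 peaks, so no direction is shown there. With 1 library per line the difference between lines was not tested in either case, and line, Foxa antibody and library cannot be told apart. The lists of the lines also differed in peak width, and the part of this was not tested.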

How the results depend on the processing

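Over 13 results 130 alternatives were computed, of which 90 stayed within the 95% interval of the reported value, 37 lay outside it and 3 reversed the sign of a difference whose interval excludes 0. When 50% of the shorter peak had to be covered the joint share was 6.42% of Foxa3 and 35.8% of Hnf4a peaks, the median offset 105.75 bp, the difference between joint and apart Hnf4a peaks 38.4 points at 48-hour Foxa3 peaks and -23.0 points at other lines' Hnf4a peaks. With centres within 200 bp these were 5.03%, 25.5%, 61 bp, 23.5 points and -18.2 points. Joint Foxa3 peaks then exceeded apart ones by 2.34 in median score, 105 bp in width and 8.81 points in runs, and 4.24% of them lay in runs of 10 or more. The difference at 48-hour Foxa3 peaks changed sign to -3.30 points, with an interval that includes 0 (-6.51 to 0.218). Both of these overlap rules also set which peaks counted as lying at 48-hour peaks or other lines' peaks. In the upper 50% of each list by score the joint shares were 5.04% and 27.5%, the Foxa3 width difference 266 bp, the offset 136.5 bp, the Hnf4a differences 36.6 and -27.0 points, and the share in runs of 10 or more 0%. With the Foxa3 list at the length of the Hnf4a list these were 12.7%, 15.5%, 422 bp, 203.75 bp, 53.0 and -25.2 points and 0%, with a width difference of 7 bp for Hnf4a and 8.78 points in runs for Foxa3. Both steps removed the lower-scoring Foxa3 peaks, many of them in long runs, before runs were formed. The 0% values are thus not read as a trait of joint peaks. With peaks within 500 bp merged 9.13% of Foxa3 peaks were joint, the width differences were 593 bp for Foxa3 and 29 bp for Hnf4a, the offset was 236 bp and the difference at 48-hour Foxa3 peaks 14.2 points. Within width bands of 25% the Foxa3 score difference was 2.08 and the 48-hour difference changed sign to -3.41 points, and within score bands it changed sign to -1.76 points. Such values are averages over the bands, weighted by the number of joint peaks in each, and have no interval. Without the joint-rich locus 3.04% of joint Foxa3 peaks lay in runs of 10 or more. The comparisons within bands, the removal of that locus, the joint share among lasting 48-hour Foxa3 peaks, and the results on other lines' Hnf4a and on runs of 10 or more were chosen after seeing the data. The Hnf4a score difference and the Hnf4a difference at 48-hour Hnf4a peaks stayed within their intervals under all 10 alternatives each, with values of -0.293 to 0.134 and -0.629 to 0.193 points that changed sign 8 times around 0, and no result left its interval on autosomes only, without the dense blocks, or with near windows of 1 kb or 5 kb or run gaps of 1 kb or 5 kb. The causes were not tested. No paired analysis was possible because each group has 1 library and no test was made. With the depth unknown, the absence of a peak cannot be told apart from a peak that was not called.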
